A study of Mus musculus with 4 samples.

Results

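The genes described here are 10 that encode extracellular matrix proteins and secreted proteins of the kind laid down in healing tissue: *Fn1*, *Tnc*, *Tnn*, *Postn*, *Tgfbi*, *Thbs1*, *Thbs2*, *Cthrc1*, *Olfml3* and *C1qtnf3*. They were taken by symbol, and the 10 are among 28006 features of the count matrices. They were selected with their behaviour after marrow ablation in these same libraries known, so every level and ratio given for them is a description without a p-value. The data are single-cell RNA-seq profiles of tdTomato+ cells sorted from femurs of *Cxcl12-iCreER; R26R(tdTomato/+)* mice, with 1 library from the ablated femur (ABL) and 1 from the unoperated contralateral femur (CONT) in each of 2 replicates. All mice received tamoxifen 7 days before surgery, and all cells were taken 7 days after it. Tamoxifen activates a Cre recombinase driven by *Cxcl12* regulatory sequence on a bacterial artificial chromosome, so cells that used this transgene at the pulse, and their progeny, carry tdTomato. Ablation was mechanical: the right femur was entered through the knee, marrow was removed with endodontic files, and distal growth plates were discarded before digestion. The ages of the mice are not given in the sources used here. By the design of the study, CONT femurs belong to mice that were operated on the other side, so they are not femurs of unoperated mice. In replicate 2 the sex-linked transcripts given below do not match between CONT and ABL, so there this pairing is uncertain. Their shares also differ in replicate 1, by less.

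Matricellular proteins are secreted into the matrix, where they bind integrins, collagens and growth factors and tune how cells adhere and respond, with little load-bearing role of their own. Many are low in resting adult tissue and abundant in embryonic skeleton, periosteum, tendon and wounds. Fibronectin is the provisional matrix that cells assemble early in repair, and collagen is deposited on it. In marrow, reticular cells are the stromal cells that make *Cxcl12* and line sinusoids, and pre-osteoblasts and osteoblasts form the new bone that fills the cavity after ablation.

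Gene positions in GENCODE M21 on GRCm38 (mm10) are as follows. *Fn1* is ENSMUSG00000026193, chr1:71585520-71653200, minus strand. *Tnc* is ENSMUSG00000028364, chr4:63959785-64047015, minus strand. *Tnn* is ENSMUSG00000026725, chr1:160085029-160153580, minus strand. *Postn* is ENSMUSG00000027750, chr3:54361109-54391037, plus strand. *Tgfbi* is ENSMUSG00000035493, chr13:56609523-56639562, plus strand. *Thbs1* is ENSMUSG00000040152, chr2:118111876-118127133, plus strand. *Thbs2* is ENSMUSG00000023885, chr17:14665500-14694235, minus strand. *Cthrc1* is ENSMUSG00000054196, chr15:39076932-39087121, plus strand. *Olfml3* is ENSMUSG00000027848, chr3:103722222-103738001, minus strand. *C1qtnf3* is ENSMUSG00000058914, chr15:10952332-10980150, plus strand. *Tnn* and *Fn1* share chromosome 1, *Cthrc1* and *C1qtnf3* share chromosome 15, and *Postn* and *Olfml3* share chromosome 3, but no pair is adjacent.

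RefSeq promoter sequences on GRCm38.p6 were found for 7 of the 10 genes: *Postn*, *Tnc*, *Tnn*, *Olfml3*, *C1qtnf3*, *Tgfbi* and *Thbs2*. The 250 bases before the start site are printed for 4 of them. Among the mesenchymal classes of ABL replicate 2, *Postn*, *Tnn* and *C1qtnf3* were highest in the same cycling-like cells and *Tnc* was highest in reticular-like cells. Within these classes *Tgfbi* was also highest in the cycling-like cells (507 CPM), but its window, which held none of the motifs searched, is not printed. Capitals mark the motifs that were searched on both strands: TGACTCA for AP-1, GGAATG for TEAD, CAGACA for SMAD and TATAAA for the TATA box, with none of the matches overlapping another. The Postn window (promoter 2) is chr3:54360857-54361106 on the plus strand, the Tnn window chr1:160153576-160153825 on the minus strand, the C1qtnf3 window chr15:10952082-10952331 on the plus strand and the Tnc window (promoter 2) chr4:64046937-64047186 on the minus strand.
Postn: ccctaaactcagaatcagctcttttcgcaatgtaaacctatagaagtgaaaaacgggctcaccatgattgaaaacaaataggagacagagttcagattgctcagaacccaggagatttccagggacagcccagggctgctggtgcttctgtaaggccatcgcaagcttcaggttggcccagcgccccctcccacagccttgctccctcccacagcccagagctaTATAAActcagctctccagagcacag
Tnn: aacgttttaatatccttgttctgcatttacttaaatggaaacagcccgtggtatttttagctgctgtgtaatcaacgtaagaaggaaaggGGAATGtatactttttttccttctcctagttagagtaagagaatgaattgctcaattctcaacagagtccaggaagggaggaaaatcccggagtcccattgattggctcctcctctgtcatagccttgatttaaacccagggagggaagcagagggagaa
C1qtnf3: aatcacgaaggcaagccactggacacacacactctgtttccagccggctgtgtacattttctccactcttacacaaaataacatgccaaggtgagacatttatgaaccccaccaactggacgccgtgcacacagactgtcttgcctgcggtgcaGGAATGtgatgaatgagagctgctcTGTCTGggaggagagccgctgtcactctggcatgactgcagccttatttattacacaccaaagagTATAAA
Tnc: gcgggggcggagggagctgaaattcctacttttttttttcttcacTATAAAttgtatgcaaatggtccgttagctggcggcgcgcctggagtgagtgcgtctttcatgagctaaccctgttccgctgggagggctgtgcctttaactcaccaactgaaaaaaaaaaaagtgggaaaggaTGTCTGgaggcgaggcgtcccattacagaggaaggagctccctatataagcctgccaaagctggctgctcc
In the *Postn* window the TATA box letters began 26 bases before the start site. In the *Tnn* window the only match was GGAATG, 160 bases before the start site. The *C1qtnf3* window held GGAATG at 96 bases, the SMAD letters on the other strand at 71 bases and TATAAA at 6 bases before the start site. The *Tnc* window held TATAAA at 205 bases and the SMAD letters on the other strand at 71 bases before its start site. Over the 7 genes, GGAATG was in 3, CAGACA in 3, TATAAA in 4 and TGACTCA in 0. Among all 27025 genes with a RefSeq promoter, 14.4% had GGAATG in at least 1 promoter of that length, 19.3% CAGACA, 14.3% TATAAA and 5.16% TGACTCA, and among all 32851 promoters the shares were 12.6%, 17.1%, 12.4% and 4.46%. These matches are descriptions of letters, and a window without a match says only that the letters are absent there.

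The 4 libraries held 22889380 to 44784072 UMIs (unique molecular identifiers, each standing for 1 captured transcript), and 1459 to 3433 barcodes per library were taken as cells, with medians of 5714 to 12895.5 UMIs. Replicate 1 was made with Chromium version 2 and replicate 2 with version 3, so replicate and chemistry cannot be told apart. *Xist*, the transcript of the inactive X chromosome in females, was found in 44.9% and 69.2% of CONT and ABL cells of replicate 1, and in 69.5% and 0.118% of those of replicate 2, so the CONT and ABL libraries of replicate 2 cannot be made of the same mixture of mice. Y-linked transcripts were found in 27.2% and 70.5% of CONT and ABL cells of replicate 2, so its conditions also differ in the sex of the cells. In replicate 1 the Y-linked shares were 26.2% and 12.6%, so there *Xist* was more frequent and Y-linked transcripts less frequent in ABL. Whether the mix of sexes also differs in replicate 1 was not tested. At most 5 cell barcodes were shared between any pair of libraries. Cells were placed into classes by clustering without the 10 genes, and class names were given from markers. Where 4 values stand in a row without names, they are for CONT and ABL of replicate 1 and then for CONT and ABL of replicate 2. Reticular-like cells numbered 1155, 393, 1962 and 328, and 9 of their 9 markers, among them *Cxcl12*, *Adipoq* and *Lepr*, were above 10 CPM in every library. All mesenchymal cells together numbered 1294, 676, 2033 and 1798. In replicate 2, 193 joint lining-like, 159 tendon-like, 131 cycling-like and 465 periosteal or fibroblast-like cells came from ABL, against 0, 1, 1 and 33 from CONT, so those classes had few or no CONT cells. The periosteal or fibroblast-like name covers unlike cells. In replicate 1 it joined a cluster led by *Prg4*, *Aspn* and *Dio2* (37 CONT and 18 ABL cells) and another led by *Gsn* and *Clec3b* (8 and 10). Their mix thus differed between CONT and ABL. In replicate 2 it was a cluster led by *Clec3b* and *Mfap5*, and *Prg4*-led cells were named joint lining-like. Free RNA, scaled by hematopoietic markers seen in mesenchymal cells, was estimated at 9.01%, 10.9%, 0.948% and 11.3% of mesenchymal UMIs. In ABL replicate 2, 9.29% of those marker UMIs were *F13a1*, which also led the joint lining-like cluster. The markers were uneven there, summing to 166 CPM in tendon-like and 243 CPM in pre-osteoblast-like cells. Reticular-like cells held 2399 CPM of them, cycling-like cells 4197 CPM and joint lining-like cells 4736 CPM. The estimate is thus an average over unlike classes, and it was applied to all of them alike. A level is CPM, the UMIs of a gene per 1000000 UMIs summed over the cells of a class in a library. These are 3′ counts, levels of different genes are not compared, and a higher class sum can reflect more cells with the transcript or more of it per cell.

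In reticular-like cells, 8 of the 10 genes had both ABL libraries above both CONT libraries, where 19.5% of 11388 genes tested did so. The exceptions were *Tgfbi* and *Thbs1*. *Tnn* and *C1qtnf3*, which are among the 8, had too few UMIs to be among the genes tested, and after subtraction of free RNA *Cthrc1* and *C1qtnf3* were no longer higher in ABL in both replicates. The genes were selected on this contrast, so nothing is read from the difference between the shares. By the plain ratio of CPM, 5 of the 10 were at least 2-fold higher in both replicates: *Fn1*, *Postn*, *Cthrc1*, *Olfml3* and *Thbs2*. *Cthrc1* was at 0 UMIs in both ABL libraries after subtraction of free RNA. The share of genes tested, 0.395%, was counted after adding 10 CPM to each level, a stricter rule that *Cthrc1* does not pass. In all mesenchymal cells together, 8 of the 10 had both ABL libraries above both CONT libraries, against 22.1% of 13649 genes, and here the exceptions were *Tnc* and *Thbs1*. There, 7 of the 10 were at least 2-fold higher in both replicates by the plain ratio, against 0.791% of genes by the stricter rule. *Thbs1* was thus not higher in ABL in both replicates of either sum by more than counting error, *Tnc* was higher in both replicates of the reticular-like sum but not of all mesenchymal cells, and *Tgfbi* was above both CONT libraries in all mesenchymal cells but not in reticular-like cells.

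**Figure D1:**
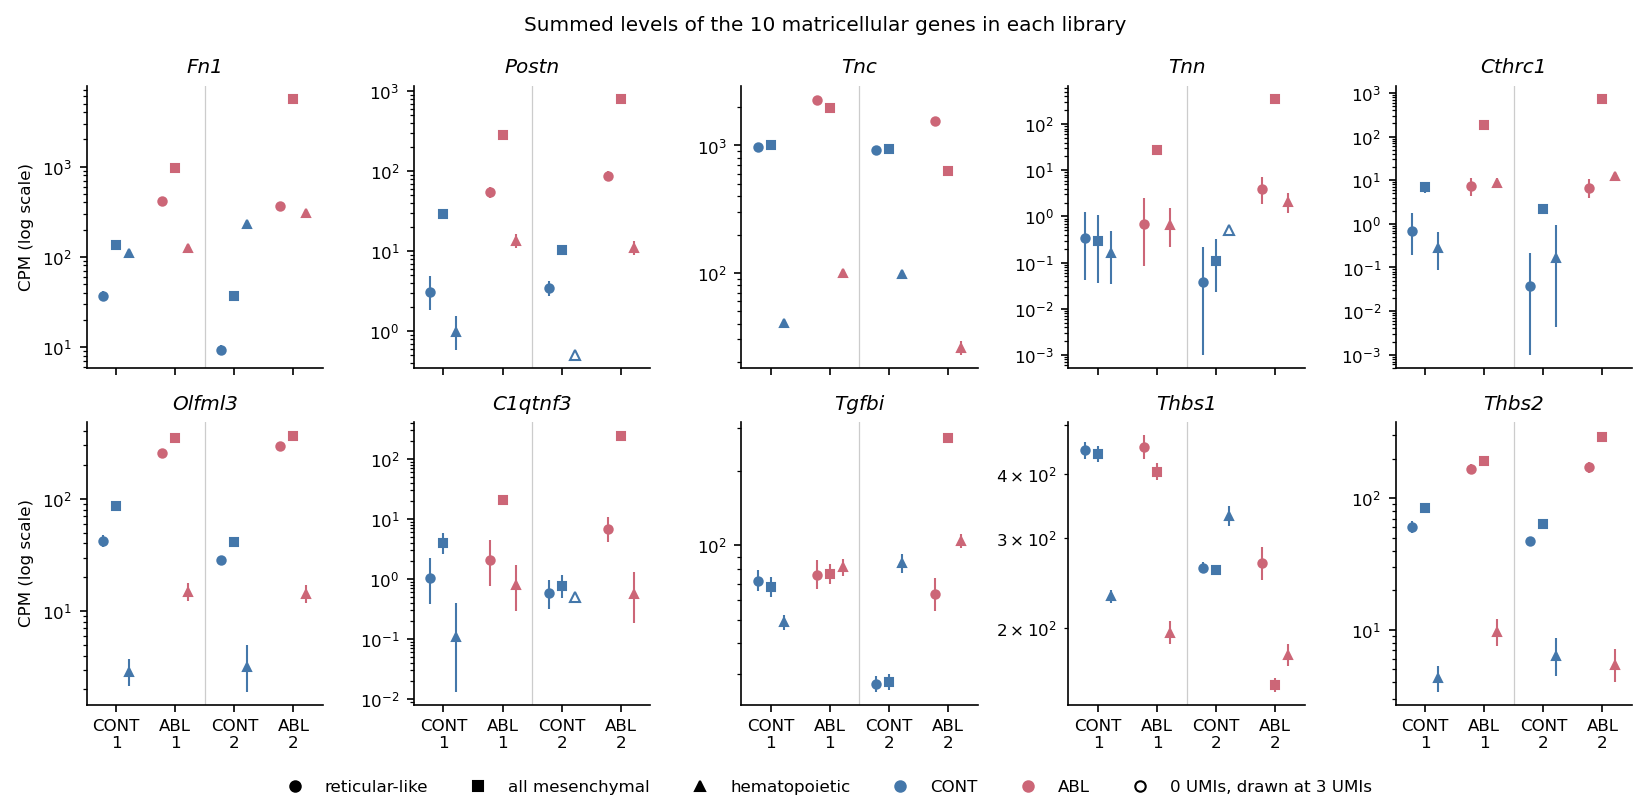
Levels of each gene (CPM, log axis that differs between panels) in the 4 libraries, with 95% exact Poisson intervals, for reticular-like cells (circles), all mesenchymal cells (squares) and hematopoietic cells (triangles). Open symbols are sums with 0 UMIs, drawn at the level of 3 UMIs. For *Postn*, ABL sums lie above CONT sums in both replicates and all 3 sets of cells, while *Thbs1* reticular-like levels are nearly equal within a replicate.

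*Fn1* encodes fibronectin, the integrin-binding glycoprotein of provisional matrix. In reticular-like cells its level was 36.8 and 410.4 CPM in CONT and ABL of replicate 1, against 9.18 and 369 CPM in replicate 2. The ABL libraries lay above both CONT libraries, with ratios of 11.2 (95% exact interval 9.64 to 13) and 40.2 (34.9 to 46.5) in replicates 1 and 2. These intervals, like all that follow, cover counting error only. Over all mesenchymal cells the level was 133 and 975 CPM in CONT and ABL of replicate 1, against 37 and 5620 CPM in replicate 2, and in ABL replicate 2 the joint lining-like cells alone reached 23912 CPM. Those 193 cells held 54.1% of the difference between ABL and CONT in replicate 2. Other mesenchymal classes of ABL replicate 2 lay between 369 CPM in reticular-like and 7036 CPM in chondrocyte-like cells. Free RNA moved with this gene: empty droplets held 146, 729.8, 142 and 2929 CPM of *Fn1*. The shares of mesenchymal UMIs subtracted as free RNA were 9.01%, 10.9%, 0.948% and 11.3%. Erythroid-like cells, which should lack the gene, held *Fn1* at 5.22%, 6.9%, 0.389% and 1.73% of the empty-droplet level. These values are below the shares subtracted, most of all in ABL replicate 2, and whether the subtraction was too strong was not tested. After it, the reticular-like ratio was 14.2 in replicate 1 and 5.45 in replicate 2. Among cells with a Y-linked UMI and no *Xist* UMI, the ratios were 13.1 and 24.7.

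The tenascins are large hexameric or multimeric glycoproteins that weaken adhesion of cells to fibronectin. *Tnc*, tenascin C, was already abundant in CONT reticular-like cells. Its level there was 974 and 2268 CPM in CONT and ABL of replicate 1, against 926 and 1549 CPM in replicate 2, and both ABL libraries lay above both CONT libraries, with ratios of 2.33 (2.25 to 2.41) and 1.67 (1.62 to 1.73). Across mesenchymal classes the replicates went opposite ways, with 1011 CPM in CONT against 1954 in ABL for replicate 1, and 943 and 636 CPM in replicate 2. In replicate 2 reticular-like cells were 1962 of 2033 CONT but 328 of 1798 ABL mesenchymal cells, and the classes that made up the rest of ABL had lower *Tnc* than reticular-like cells. The joint lining-like cells were at 237 CPM, the periosteal or fibroblast-like at 363 CPM and the cycling-like at 807 CPM. Pre-osteoblast-like cells held the highest levels in replicate 1, with 3885 CPM in CONT and 4412 CPM in ABL, and in replicate 2 the ABL cells of that name were at 755 CPM. The pre-osteoblast-like cells of replicate 2 came from ABL alone and from clusters led by *Msmp*, *Ndufa4l2* and *Fmod* or by *Lsp1* and *Mmp13*, whereas that of replicate 1 was led by *Spp1* and *Wif1*, so the name covers unlike cells. An unnamed cluster of replicate 2 led by *Spp1*, *Fabp4* and *Acta2* had 3010 CPM in 33 CONT cells and 1237 CPM in 145 ABL cells.

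*Tnn* encodes tenascin N, also called tenascin W, a relative found in periosteum and developing bone. It was close to absent from reticular-like cells, with 2, 2, 1 and 10 UMIs. In the sum of all mesenchymal cells it was at 0.297 and 27.9 CPM in CONT and ABL of replicate 1, against 0.11 and 347 CPM in replicate 2. The ABL libraries thus stood far above both CONT libraries, which held 2 and 3 UMIs in all. The ratios were 93.9 (25.6 to 782) in replicate 1 and 3162 (1082 to 15335) in replicate 2. In ABL replicate 1, *Tnn* was highest in the unnamed cluster led by *Jchain*, *Timp1* and *S100a6* (186 CPM in 42 cells) and in the periosteal or fibroblast-like cells (175 CPM in 28 cells). In ABL replicate 2 it was at 875 CPM in cycling-like, 715 in the *Msmp*- and *Lsp1*-led clusters named pre-osteoblast-like, 664 in the unnamed cluster led by *Lsp1*, *Fmod* and *H19*, and 638 in tendon-like cells. Osteoblast-like and joint lining-like cells of that library had 51.2 and 10.2 CPM. The periosteal or fibroblast-like cells of CONT held 0 UMIs in replicate 1 and 0 in replicate 2, so their ABL levels were at least 14.7-fold and 51.8-fold higher, taking 3 UMIs per library as the floor.

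*Postn* and *Tgfbi* encode fasciclin-domain proteins; periostin helps to cross-link collagen and marks periosteum and tendon, and the TGFBI protein is secreted in response to TGF-beta. *Postn* in reticular-like cells was at 3.11 and 55 CPM in CONT and ABL of replicate 1, against 3.46 and 87.3 CPM in replicate 2. Both ABL libraries lay above both CONT libraries, at levels below those of the periosteal or fibroblast-like and pre-osteoblast-like cells of the same libraries. The ratios were 17.7 (10.8 to 30.6) and 25.3 (19.7 to 32.6), and after subtraction of free RNA they were 19.7 and 18.1. Among mesenchymal cells as a whole the level was 29.3 and 283 CPM in CONT and ABL of replicate 1, against 10.5 and 794 CPM in replicate 2. In replicate 1 pre-osteoblast-like cells went from 408 to 637 CPM and periosteal or fibroblast-like cells from 31.6 to 1401 CPM. In replicate 2 the periosteal or fibroblast-like cells went from 134 to 1037 CPM. Cycling-like cells of ABL replicate 2 had the highest level of any class, 2372 CPM (interval 2318 to 2426), and joint lining-like cells of the same library the lowest among mesenchymal classes, 18 CPM.

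*Tgfbi* showed no common change in reticular-like cells, where it was at 71.8 and 76.1 CPM in CONT and ABL of replicate 1, against 27.5 and 63.5 CPM in replicate 2. The replicate 1 libraries were nearly equal (ratio 1.06, 0.897 to 1.25), and in replicate 2 ABL was 2.31 times CONT (1.94 to 2.74), with both values of replicate 2 at or below those of replicate 1. In all mesenchymal cells ABL replicate 2 stood out, at 273 CPM against 67.9, 76.6 and 27.9 CPM in CONT replicate 1, ABL replicate 1 and CONT replicate 2. There the periosteal or fibroblast-like cells (444 CPM) held 46.7% of the difference and the cycling-like cells (507 CPM) 25.4%. Osteoblast-like cells were low in both ABL libraries, at 10.2 and 12.5 CPM.

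*Thbs1* and *Thbs2* encode the trimeric thrombospondins; thrombospondin 1 binds CD47 and CD36 and can activate latent TGF-beta, and thrombospondin 2 shares much of this structure without that activity. *Thbs1* in reticular-like cells was at 446 and 452 CPM in CONT and ABL of replicate 1, against 262 and 267 CPM in replicate 2. Within each replicate CONT and ABL were nearly equal, with ratios of 1.01 (0.948 to 1.08) and 1.02 (0.942 to 1.1), while the replicates differed from each other by more than the conditions did. Among cells with a Y-linked UMI and no *Xist* UMI the ratios were 0.46 (41 ABL cells) and 0.89 (204 ABL cells), below 1 in both. In the unnamed cluster of replicate 2 led by *Spp1*, *Fabp4* and *Acta2* it was higher in ABL, at 289 CPM (interval 243 to 342) in 33 CONT cells and 553 CPM (519 to 589) in 145 ABL cells. Over all mesenchymal cells it was lower in ABL in both replicates, with ratios of 0.923 (0.874 to 0.974) and 0.595 (0.573 to 0.619), and in periosteal or fibroblast-like cells it went in replicate 1 from 336 to 152 CPM and in replicate 2 from 155 to 26.4 CPM. *Thbs2* in reticular-like cells was at 60.3 and 167 CPM in CONT and ABL of replicate 1, against 47.3 and 172 CPM in replicate 2. The ABL libraries were alike and above both CONT libraries, with ratios of 2.78 (2.42 to 3.19) and 3.64 (3.26 to 4.06). In periosteal or fibroblast-like cells the replicates disagreed on *Thbs2*, with 443 CPM in CONT against 703 in ABL for replicate 1, and 749 and 286 CPM in replicate 2.

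*Cthrc1* encodes a secreted glycoprotein of wounds and of bone-forming cells, *Olfml3* a secreted olfactomedin-domain protein, and *C1qtnf3* a C1q/TNF-related protein of the adipokine family. *Cthrc1* was sparse in reticular-like cells, with 4, 21, 1 and 17 UMIs. After subtraction of free RNA the 2 ABL sums fell to 0 UMIs. These sums were 7.17 and 6.54 CPM (intervals 4.44 to 11 and 3.81 to 10.5). Empty droplets held 121 and 280 CPM, of which 10.9% and 11.3% were subtracted, so the subtraction took more than was there. Erythroid-like cells of the same libraries held 5.085 and 4.3 CPM. Whether *Cthrc1* in reticular-like cells lies above free RNA was not tested. Across mesenchymal classes its level was 6.84 and 180 CPM in CONT and ABL of replicate 1, against 2.16 and 719 CPM in replicate 2, and the ratios were 26.3 (19.6 to 36.2) and 333 (258 to 438). Osteoblast-like cells were high in both ABL libraries (866 and 953 CPM) and held 55.4% of the difference in replicate 1. In that replicate their share of mesenchymal UMIs went from 1.42% (9 CONT cells) to 11.6% (57 ABL cells). They already held 4.76 of the 6.84 CPM of CONT, so their part includes the growth of the class. In replicate 2 the largest parts were held by periosteal or fibroblast-like cells (33.5%) and cycling-like cells (24.9%).

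*Olfml3* in reticular-like cells was at 42.3 and 258 CPM in CONT and ABL of replicate 1, against 28.7 and 294 CPM in replicate 2. The ABL libraries lay close together and above both CONT libraries, with ratios of 6.1 (5.28 to 7.08) and 10.2 (9.25 to 11.3), and subtraction of free RNA left 6.1 and 10.7. It also had high levels in CONT: 565 CPM in pre-osteoblast-like cells of replicate 1, and 455 and 309.8 CPM in periosteal or fibroblast-like cells of replicates 1 and 2. In ABL the level was 686 CPM in pre-osteoblast-like cells of replicate 1 and 515 and 192 CPM in periosteal or fibroblast-like cells. *C1qtnf3* was near absent from reticular-like cells, with 6, 6, 15 and 18 UMIs, and after subtraction of free RNA the ABL replicate 2 sum was 0. In the sum of all mesenchymal cells it was at 4.01 and 20.3 CPM in CONT and ABL of replicate 1, against 0.769 and 241 CPM in replicate 2. The ratios were 5.06 (3.31 to 7.99) in replicate 1 and 314 (205 to 508) in replicate 2, where cycling-like cells were at 938 CPM and chondrocyte-like cells at 655 CPM. Both promoters printed with GGAATG, those of *Tnn* and *C1qtnf3*, belong to genes that were close to 0 in reticular-like cells of every library; the third gene with these letters, *Olfml3*, was not.

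**Figure D2:**
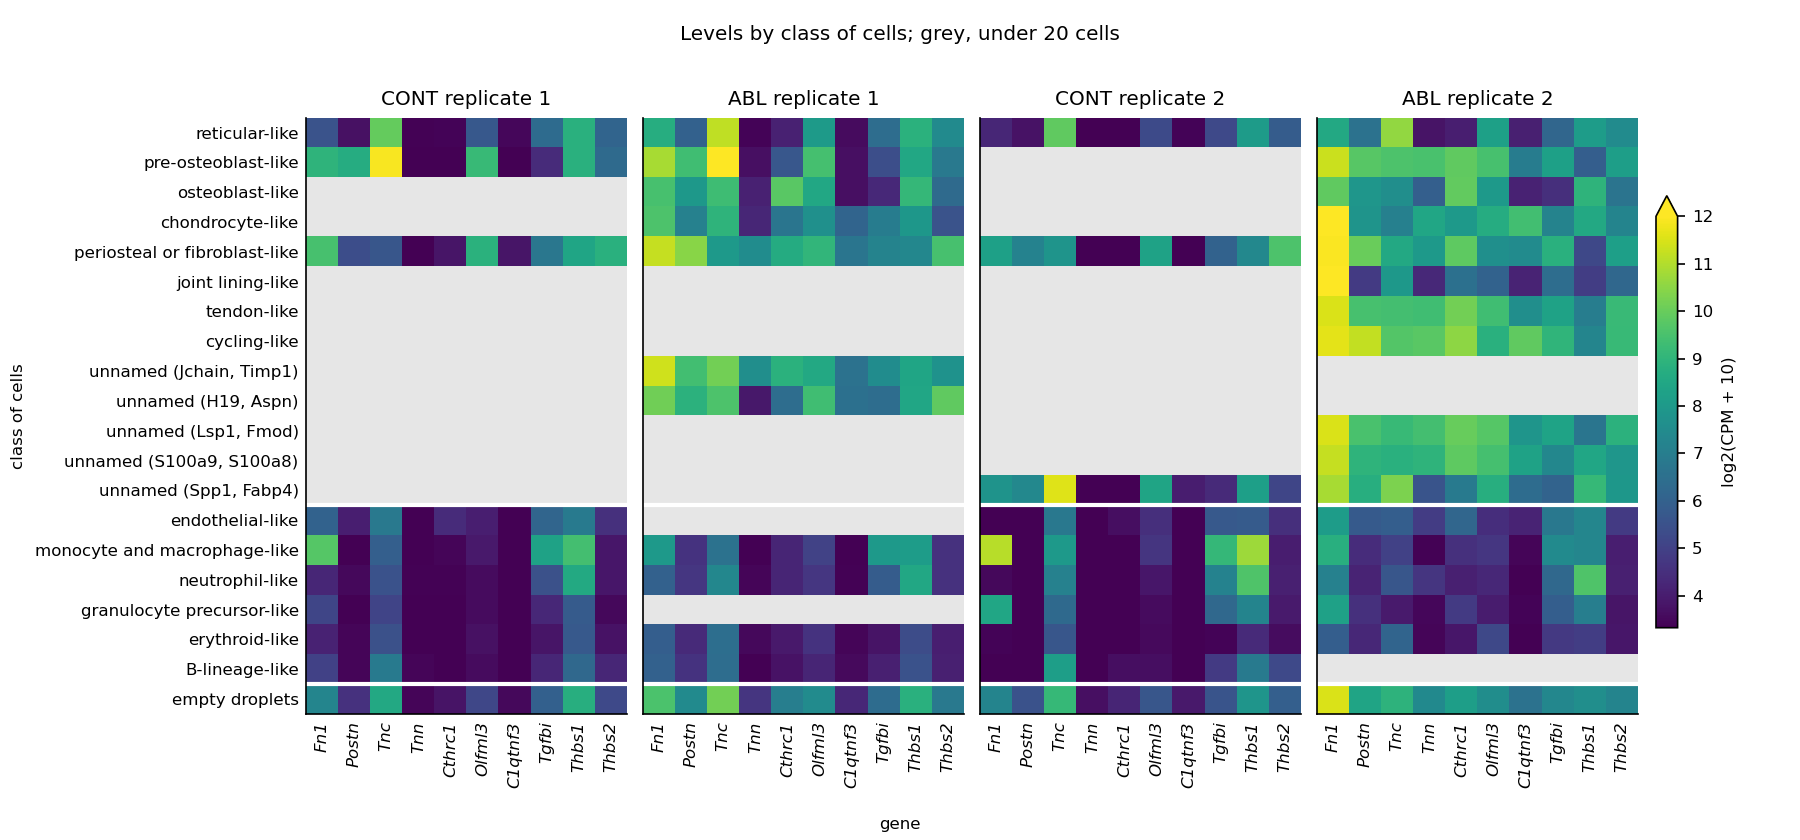
Levels, as log2(CPM + 10), of the 10 genes (columns) in classes of cells (rows) of each library. Grey rows have under 20 cells, white lines set off mesenchymal classes, other cells and empty droplets, and the colour scale is capped at 12. In replicate 2, CONT had at least 20 cells only in the reticular-like, periosteal or fibroblast-like and *Spp1*-, *Fabp4*- and *Acta2*-led unnamed mesenchymal rows. The *Tnn*, *C1qtnf3* and *Cthrc1* columns are brighter in ABL in the periosteal or fibroblast-like and unnamed rows, and differ little in the reticular-like row. The other mesenchymal rows of ABL replicate 2 have no CONT row of enough cells to be compared with.

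Which classes carried the higher levels in ABL was read from each class's share of mesenchymal UMIs multiplied by its level, so a part rises when the class is larger or when its level is higher. In replicate 1 reticular-like cells held 20.4% of the *Fn1* difference, 34.6% of that of *Olfml3* and 28.6% of that of *Thbs2*, but 9.67% for *Postn* and 1.71% for *Cthrc1*. Pre-osteoblast-like cells held 25.5% for *Fn1*, 25.1% for *Postn* and 24.1% for *Olfml3*. The unnamed cluster led by *Jchain* and *Timp1*, 42 of 676 ABL mesenchymal cells, held 69.2% for *Tnn*, 54% for *C1qtnf3* and 32.3% for *Fn1*. In replicate 2 reticular-like cells, 328 of 1798 ABL mesenchymal cells, held 0.517% for *Fn1*, 0.715% for *Postn* and 0.806% for *Olfml3*. Cycling-like cells, 131 of 1798, held 47.9% for *C1qtnf3*, 37.2% for *Postn*, 30.9% for *Tnn* and 29.7% for *Thbs2*. For *Thbs2* the reticular-like part of replicate 2 was -11.9%: their level was higher in ABL, but they made up 328 of 1798 mesenchymal cells there and 1962 of 2033 in CONT.

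**Figure D3:**
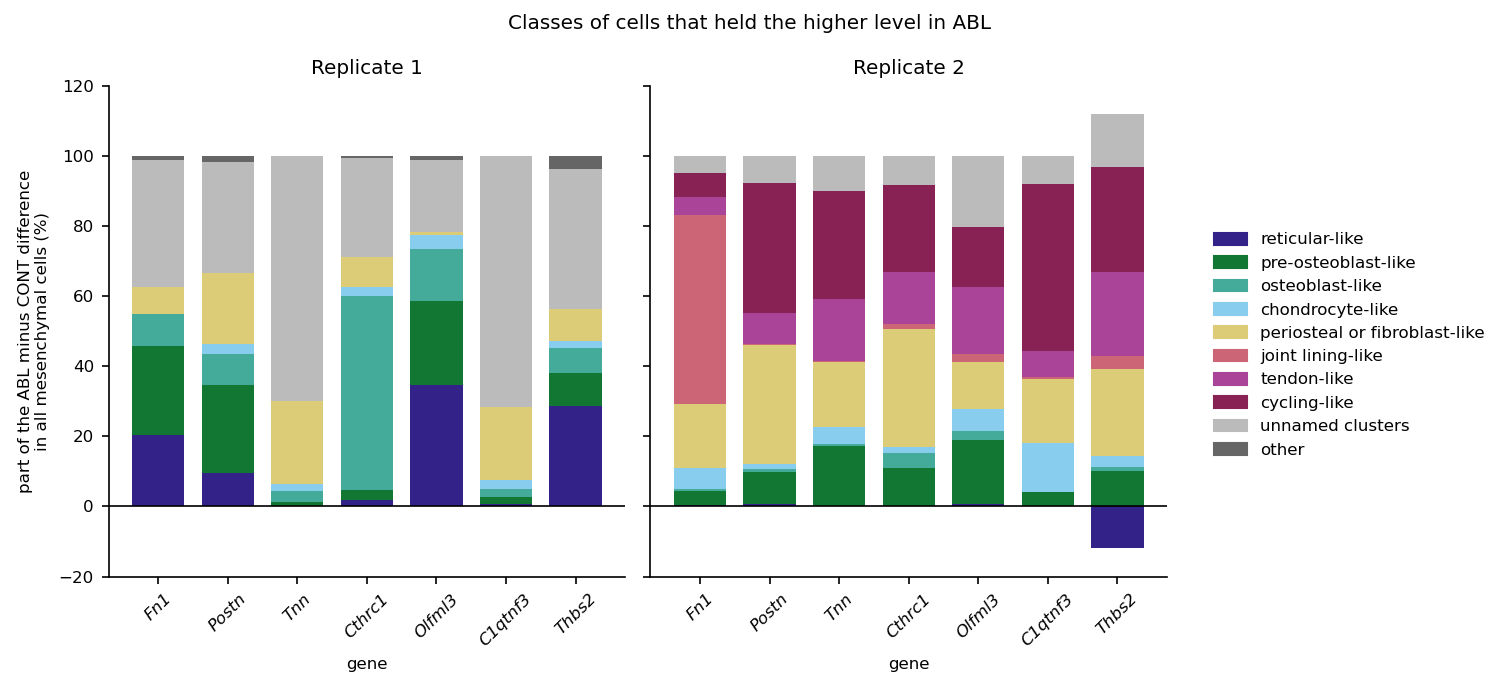
Part of the ABL minus CONT difference in all mesenchymal cells held by each class (percent of the difference, stacked; parts below 0 under the line), for the 7 genes higher in ABL in both replicates by more than 2-fold. Joint lining-like cells fill 54.1% of the *Fn1* bar of replicate 2 and almost none of the others, and osteoblast-like cells 55.4% of the *Cthrc1* bar of replicate 1.

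Within the reticular-like cells, the higher levels were spread over clusters. Clusters were compared where at least 20 cells of a library fell into them, which left 5 in each library of replicate 1, and 7 for CONT and 4 for ABL in replicate 2. *Fn1* ranged over 26.9 to 64.1 CPM in CONT and 305 to 526 CPM in ABL clusters of replicate 1, and over 4.55 to 15.1 and 94 to 648 CPM in those of replicate 2. *Olfml3* ranged over 32.5 to 57.5 and 113 to 314 CPM in replicate 1 and 16.5 to 48.5 and 238 to 386 CPM in replicate 2, and *Thbs2* over 39.5 to 88.4 and 137 to 187, and 14.4 to 71.2 and 132 to 209 CPM. For these genes and for *Tnc*, no ABL cluster was as low as any CONT cluster of its replicate. *Postn* clusters did not overlap in replicate 1 (1.1 to 6.43 and 38.9 to 70.7 CPM) but met in replicate 2 (0.568 to 16 and 14.6 to 175 CPM). Clusters overlapped in both replicates for *Thbs1*, *Tnn* and *C1qtnf3*, in replicate 1 for *Tgfbi* and in replicate 2 for *Cthrc1*. The genes were selected on this contrast, and the share of all genes tested without overlap was not counted. Clusters of a library share its mice, chemistry and free RNA, so they are not separate samples. Nothing is thus read from the lack of overlap. Some of these clusters were led by heat shock genes (*Hspa1a*), immediate early genes (*Fos*, *Jun*) or interferon-induced genes (*Cxcl10*), and the part of this in the levels was not tested. Hematopoietic markers in reticular-like sums, read over 52 genes, summed to 24378 CPM in CONT and 15050 CPM in ABL of replicate 1 and to 457.0 and 2399 CPM in those of replicate 2, with 1, 4, 8 and 17 of the 52 at 0.

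Shares of cells with a UMI, taken after thinning every cell to 2000 UMIs, were set beside those of erythroid-like cells as background. *Fn1* was found in 6.93%, 43.5%, 1.73% and 38.4% of reticular-like cells (95% exact binomial intervals 5.53 to 8.55, 38.5 to 48.6, 1.2 to 2.41 and 33.1 to 43.9), and in 15.1%, 76.6%, 8.21% and 63.4% before thinning. In erythroid-like cells, which should lack the gene, the thinned shares were 1.49%, 6.85%, 0% and 10.9%. Median depths before thinning were 4502, 6628, 12738 and 7451.5 UMIs in reticular-like and 10610, 12916, 24382 and 18816 UMIs in erythroid-like cells. The erythroid-like cells were deeper in every library, so the same number of free UMIs is a smaller part of them. After thinning, their shares can understate the background of reticular-like cells, and by how much was not tested. *Tnc* was in 76.6%, 90.8%, 71.9% and 83.2% of reticular-like cells, and in 6.4%, 9.59%, 1.56% and 8.7% of erythroid-like cells, so it was widespread in CONT as well as in ABL reticular-like cells. *Olfml3* was in 6.06%, 30.8%, 5.35% and 33.8%, *Thbs2* in 10.0%, 25.7%, 8.05% and 26.2%, and *Postn* in 0.433%, 8.4%, 0.357% and 8.23%. Erythroid-like shares were 1.28%, 1.37%, 1.56% and 2.17% for *Olfml3*, 0.213%, 0.685%, 0% and 0% for *Thbs2* and 0.426%, 2.74%, 0% and 0% for *Postn*, whose CONT shares in reticular-like cells were thus near background. *Cthrc1* was in 0.173%, 1.78%, 0% and 0.915% of reticular-like and 0%, 0.685%, 0% and 0% of erythroid-like cells. *Tnn* and *C1qtnf3* reached 0.915% and 1.22% of reticular-like cells in ABL replicate 2 and were in none of the 46 erythroid-like cells of that library, where the exact 95% interval of the share of cells with a UMI reaches 7.71%.

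**Figure D4:**
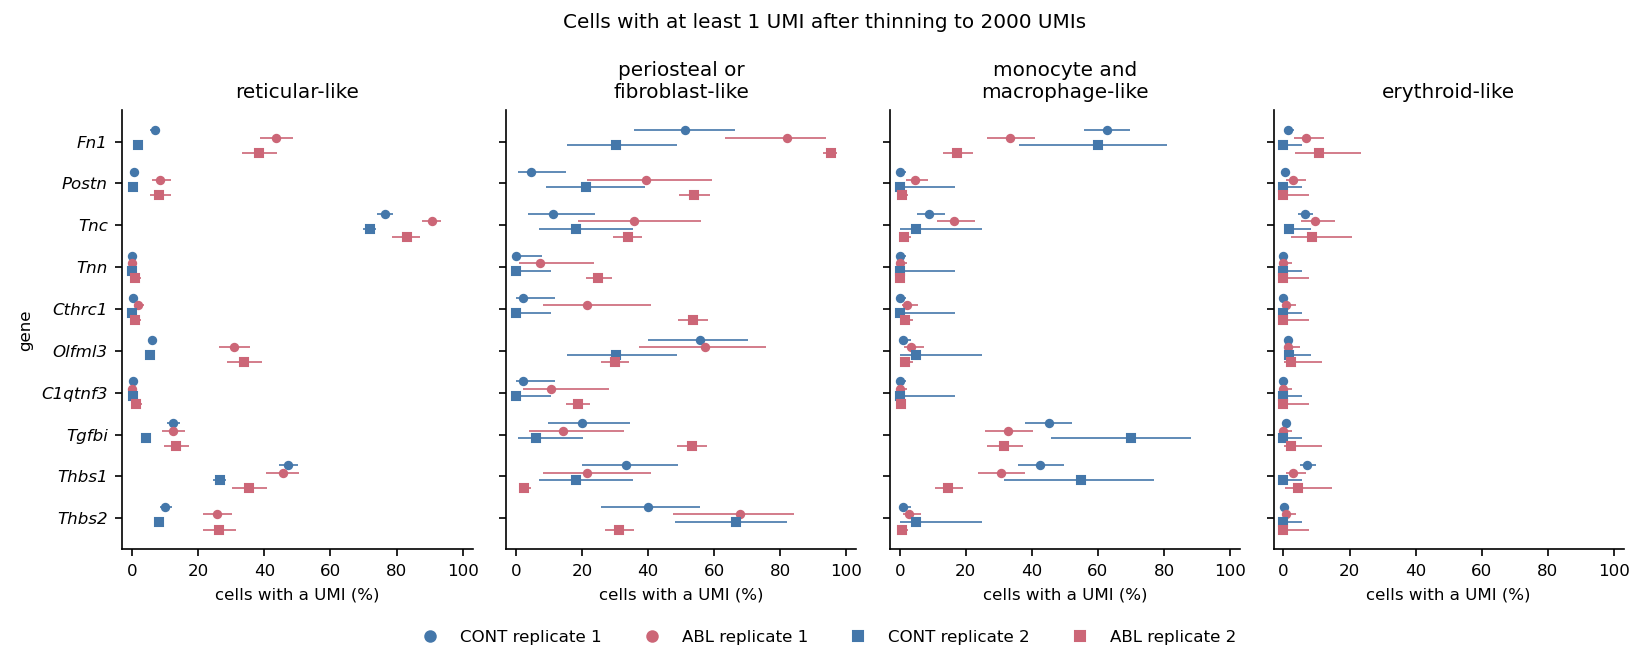
Cells with at least 1 UMI of each gene (percent, with 95% exact binomial intervals) after thinning to 2000 UMIs, in 4 classes and 4 libraries. ABL points lie right of CONT points for *Fn1*, *Olfml3* and *Thbs2* in reticular-like cells, while for *Fn1* in monocyte and macrophage-like cells CONT points lie right of ABL points.

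Hematopoietic cells numbered 2050, 771, 331 and 615, and 7 of the 10 genes were low in them. Over hematopoietic classes of at least 20 cells, *Postn* was at most 22.1 CPM, *Tnn* at most 15.3 CPM, *Cthrc1* at most 34.8 CPM, *Olfml3* at most 26.6 CPM, *C1qtnf3* at most 6.28 CPM and *Thbs2* at most 28.0 CPM. *Tnc* reached 153 CPM in neutrophil-like cells of ABL replicate 1 and 279.6 CPM in 55 B-lineage-like cells of CONT replicate 2, below the reticular-like level of the same libraries. *Postn* illustrates the shift that free RNA can give: erythroid-like cells held 0.886, 10.6, 0 and 9.45 CPM while empty droplets held 13.4, 166, 35.1 and 324 CPM. Over the 10 genes, the erythroid-like level was 0 to 14.6% of the empty-droplet level, with medians of 8.3%, 6.85%, 0.92% and 2.98% by library.

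The other 3 genes had hematopoietic levels of their own. *Fn1* in monocyte and macrophage-like cells was at 829 and 252 CPM in CONT and ABL of replicate 1, against 2125 and 435 CPM in replicate 2, and it was lower in ABL in both replicates, opposite to reticular-like cells. *Tgfbi* in those cells was at 314 and 243 CPM in CONT and ABL of replicate 1, against 540.4 and 166 CPM in replicate 2, above erythroid-like cells of every library (3.9, 3.7, 0.553 and 17.2 CPM). *Thbs1* was at 663 and 268 CPM in CONT and ABL of replicate 1, against 1688 and 147 CPM in replicate 2 in them. The monocyte and macrophage-like levels of all 3 genes were thus lower in ABL in both replicates, but CONT replicate 2 rests on 20 such cells. In neutrophil-like cells *Thbs1* was at 373 and 357 CPM in CONT and ABL of replicate 1, against 771 and 766 CPM in replicate 2, with little difference between conditions within a replicate. Hematopoietic cells held 68.5% and 57.6% of all *Fn1* UMIs of the CONT libraries but 14.1% and 1.87% of those of ABL. For *Thbs1* they held 58.3%, 38.1%, 21.8% and 27.6%, and for *Postn* 8.26%, 5.68%, 0% and 0.48%.

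Detection of several of the 10 genes in the same cell was counted at 2000 UMIs per cell. Together the 10 genes took up 0.186%, 0.446%, 0.139% and 0.944% of all mesenchymal UMIs. At least 3 of them were found in 16.6% and 5.15% of CONT and 50.9% and 44.5% of ABL reticular-like cells of replicates 1 and 2, against 2.78% and 3.32%, and 5.84% and 3.58%, of hematopoietic cells. Monocyte and macrophage-like cells stood apart from the other hematopoietic cells, with at least 3 in 21.3%, 15.2%, 45% (20 cells) and 4.76%, above the reticular-like shares in both CONT libraries. Cells with 5 or more were rare among reticular-like cells, 6.36% and 3.66% in ABL. They made up 67.2% of cycling-like, 63.1% of the *Lsp1* and *Fmod*-led, 61.1% of pre-osteoblast-like and 52.8% of tendon-like cells of ABL replicate 2. Joint lining-like cells, which had *Fn1* in 100%, had 5 or more genes in 2.07%. Patterns were compared across the 51 class sums of at least 20 cells, on the log2(CPM + 10) scale. The most similar pairs were *Tnn* and *C1qtnf3* (Pearson r = 0.921), *Postn* and *Olfml3* (0.915) and *Olfml3* and *Thbs2* (0.900). Of the 51 sums, 24 are mesenchymal, so r also takes in the difference between mesenchymal and other cells. These sums share libraries, depth and free RNA, so the values are descriptions.

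**Figure D5:**
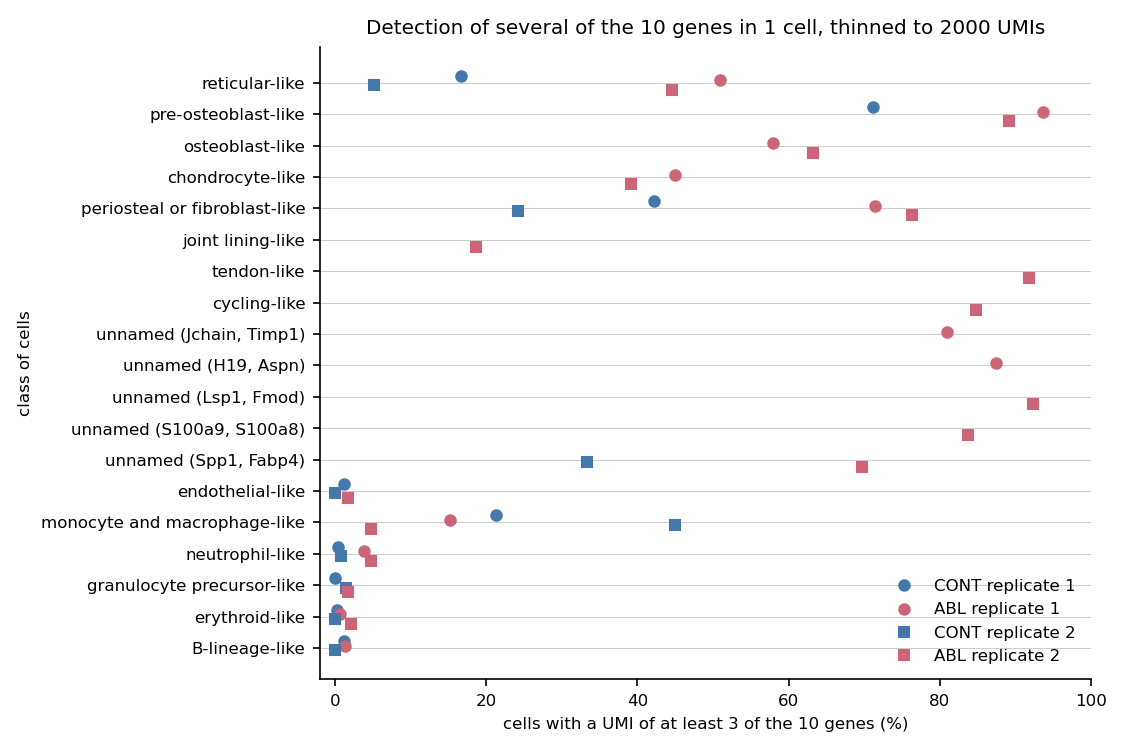
Cells with a UMI of at least 3 of the 10 genes (percent) after thinning to 2000 UMIs, by class and library, for classes of at least 20 cells. In reticular-like cells the ABL points (50.9% and 44.5%) lie right of the CONT points (16.6% and 5.15%), and lymphoid and erythroid points stay near 0.

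The genes with the most similar pattern over the same 51 sums were sought among genes with at least 50 CPM in some sum, 3 per gene. For *Tnn* they were *Ndufa4l2* (r = 0.942), *Scx* (0.934) and *Fmod* (0.914), the latter 2 being the tendon transcription factor scleraxis and the collagen-binding proteoglycan fibromodulin. *Fmod* was also among the 3 closest to *Cthrc1* (0.893, after *Cd109* at 0.896 and before *Fkbp11* at 0.880) and to *C1qtnf3* (0.925, after *Capn6* at 0.933 and before *Ndufa4l2* at 0.918). For *Postn* they were *Col6a3* (0.892), *Mmp2* (0.888) and *Timp1* (0.888), a collagen chain, a matrix metalloproteinase and an inhibitor of such enzymes. *Mmp2* (0.933) was likewise close to *Thbs2*, after *Dkk3* (0.937) and before *Pcolce* (0.931), and *Pcolce*, an enhancer of procollagen processing, was close to *Olfml3* (0.942), between *Chpf* (0.944) and *Clec11a* (0.939). For *Tnc* they were *Fat1* (0.881), *Olfml2b* (0.877) and *Fgfr2* (0.870). *Fn1*, *Tgfbi* and *Thbs1* had looser partners: *Anxa5* (0.825), *Slc35e4* (0.825) and *Yif1a* (0.818) for *Fn1*, *Anxa5* (0.780), *Anxa2* (0.771) and *Myadm* (0.756) for *Tgfbi*, and *Borcs6* (0.705), *Rab31* (0.681) and *Idh1* (0.680) for *Thbs1*.

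Other genes of the same biology, in 6 lists, were tested in edgeR's quasi-likelihood fit of the class sums with the replicate as a block. The lists were written with earlier results of these data known, so their counts, medians and p-values are not independent of that choice. In the fit of reticular-like cells 493 of 11388 genes (4.33%) passed an adjusted p of 0.05, 264 higher (2.32%) and 229 lower (2.01%) in ABL. Among mesenchymal cells as a whole 413 of 13649 (3.03%) passed, 285 higher (2.09%) and 128 lower (0.938%). In that fit a shift in the make-up of the mesenchymal cells and a change within a class cannot be told apart. Without the replicate block 0 genes passed in either fit, with 321 and 1196 genes at an unadjusted p under 0.05, so every edgeR call on these lists rests on the block. The block leaves 1 residual degree of freedom, with the spread of each gene drawn towards that of the other genes, and with 2 libraries per condition an exact permutation test of a single value cannot give a two-sided p below 0.333. Leaving out any 1 of the 4 libraries, which is possible only without the block, left 0 to 26 calls in reticular-like and 0 to 271 in all mesenchymal cells (1, 26, 0 and 8, and 0, 271, 0 and 1, without CONT replicate 1, ABL replicate 1, CONT replicate 2 and ABL replicate 2). With library sizes in place of TMM scaling, the split in reticular-like cells was 342 higher and 161 lower, and the median log2 fold change of all genes moved from -0.01 to 0.09.

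Among family relatives of the 10 genes, 2 of 10 tested rose and 0 fell in reticular-like cells (list median log2 fold change 0.33, all genes -0.01). *Comp*, cartilage oligomeric matrix protein or thrombospondin 5, rose by 2.66 ± 0.267 (SE), adjusted p = 2.2e-20 by edgeR, and *C1qtnf6* by 0.90 ± 0.265 (SE), adjusted p = 0.021 by edgeR, with *Comp* lost after subtraction of free RNA and *C1qtnf6* in DESeq2. In all mesenchymal cells 1 of 14 tested rose, *Thbs4*, a tendon thrombospondin, by 3.68 ± 0.627 (SE), adjusted p = 0.0054 (edgeR, list median 1.09, all genes -0.05). *Thbs4* was among the leading genes of a tendon-like cluster of replicate 2 that held 1 CONT and 119 ABL cells. Among other matricellular proteins, 2 of 14 rose in reticular-like cells (list median 0.30): *Spp1*, osteopontin, by 3.48 ± 0.459 (SE), adjusted p = 1.3e-11, and *Ccn4*, a CCN family protein listed as *Wisp1*, by 2.26 ± 0.276 (SE), adjusted p = 1e-13 (both by edgeR). Over all mesenchymal cells 2 of 16 rose (list median 1.23), *Ccn4* by 2.62 ± 0.483 (SE), adjusted p = 0.0092 and *Edil3*, an integrin ligand, by 2.08 ± 0.502 (SE), adjusted p = 0.035 (both by edgeR). The *Spp1* and *Ccn4* calls in reticular-like cells held under all 12 alternatives that kept the 4 libraries and the block. In all mesenchymal cells *Thbs4* and *Ccn4* each held under 7 of 10 and *Edil3* under 5 of 10.

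Among cell surface receptors of these proteins, 2 of 14 rose and 1 fell in reticular-like cells (list median -0.07). *Cd36*, a receptor of thrombospondins and fatty acids, rose by 4.46 ± 0.656 (SE), adjusted p = 2.5e-09, *Itga9*, an integrin subunit that binds tenascin C, by 1.10 ± 0.237 (SE), adjusted p = 0.00023, and *Itga8* changed by -0.81 ± 0.261 (SE), adjusted p = 0.045, all by edgeR. *Cd36* was lost after subtraction of free RNA and in DESeq2, *Itga9* in DESeq2, and *Itga8* under 7 of 12 alternatives. Across mesenchymal classes 1 of 15 rose and 1 fell (list median -0.11), again *Cd36* (3.91 on the log2 scale) and *Itga8* (-1.82), each held under 3 of 10 alternatives. Among collagens and cross-linking enzymes, 2 of 14 rose in reticular-like cells (list median 0.39), *Col1a1* by 2.91 ± 0.46 (SE), adjusted p = 4.8e-08 and *Col3a1* by 2.00 ± 0.412 (SE), adjusted p = 9.1e-05 (edgeR), under all 12 alternatives. In the sum of all mesenchymal cells 0 of the 15 passed in edgeR (list median 0.64), while 6 had an unadjusted p under 0.05 and 5 were called by DESeq2.

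Among TGF-beta signalling genes, 0 of 15 rose and 1 fell in reticular-like cells (list median -0.14), *Tgfb3*, a ligand, by -0.82 ± 0.243 (SE), adjusted p = 0.022 in edgeR, lost under 3 of 12 alternatives. Among mesenchymal cells as a whole 0 of 15 passed in edgeR (list median -0.32), with 2 at an unadjusted p under 0.05 and 0 called by DESeq2. Among contractile genes, 4 of 9 rose in reticular-like cells (list median 0.80), against 1 of 9 with DESeq2. *Acta2*, smooth muscle actin, rose by 7.05 ± 0.45 (SE), adjusted p = 1.2e-50, *Actg2* by 4.34 ± 1.12 (SE), adjusted p = 0.005, *Tpm2*, a tropomyosin, by 2.18 ± 0.245 (SE), adjusted p = 3.9e-16 and *Tagln* by 0.80 ± 0.235 (SE), adjusted p = 0.021, all by edgeR. *Tpm2* held under all 12 alternatives, *Acta2* was lost only in DESeq2, *Actg2* under 2 and *Tagln* under 5. In all mesenchymal cells 3 of 9 rose (list median 0.06), *Acta2* by 5.17, *Actg2* by 4.14 and *Tpm2* by 2.37 on the log2 scale, with *Acta2* held under 3 and the others under 5 of 10 alternatives.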

How the data were processed

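Single-cell RNA-seq of sorted tdTomato+ femur cells was examined in 4 libraries. Per the labels, the authors processed reads against mm10 with Cell Ranger and Seurat, and the deposited files hold raw UMI counts per feature and barcode, without normalization, for all barcodes. The genes and the lists were chosen with earlier results of these data known. Cells were barcodes that passed the filter of the study (a minimum of 500 genes with up to 20% mitochondrial UMIs for version 2, and 1000 genes with up to 15% for version 3) and whose UMIs reached 1 in 10 of the 99th percentile over the 3000 largest barcodes. Doublets were not removed in the main result. Scrublet (scanpy 1.11.5) called 77, 7, 2 and 15 doublets, 2.24%, 0.480%, 0.0832% and 0.591% of cells; rates this low leave doublets possible in every library. Empty droplets were barcodes of up to 300 UMIs.

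Each replicate was clustered in Seurat 5.3.0 (R 4.3.3; 2000 variable genes, 30 components, 20 neighbours, resolution 2), and mesenchymal cells were integrated by CCA and clustered again (resolution 0.8), leaving out the 10 genes, the 87 genes of the 6 lists, sex-linked genes and transgenes. Clusters were named from 133 marker entries by a mean scaled level of at least 0.25 and a margin of 0.1; these thresholds, and the need for 4 detected markers, were set after the data were seen. Other clusters stayed unnamed. Clusters differ between the replicates and may differ from the study's own; the labels of the study were not used here.

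Levels are CPM of summed counts with 95% exact Poisson intervals, and ratios have exact conditional intervals. A sum of 0 was set to a floor of 3 UMIs. On the log2 scale the pseudocount was 10 CPM. Counts summed per library were tested in edgeR 4.0.16 (TMM, filterByExpr, quasi-likelihood F test, replicate block, Benjamini-Hochberg threshold 0.05). Each SE beside an edgeR change is the absolute log2 fold change divided by the square root of F. It is worked back from the test and is not a separate estimate of spread. The block follows the contralateral control; within a replicate, CONT and ABL sums departed together from the means of their conditions (correlation over genes 0.724 in reticular-like, 0.429 in all mesenchymal cells), which includes the shared chemistry, and the *Xist* shares speak against a shared mixture of mice in replicate 2. Replicate 1 was pooled from several mice. On simulated data 93 of 100 genes given a log2 change of 2 and 100 of 100 given 3 were recovered in reticular-like cells (10906 genes), and 97 and 100 in all mesenchymal cells (13242 genes). False calls numbered 4 and 12. The simulation gave every gene the same fixed spread and changed only well-counted genes, so it does not cover genes that vary more. In the data, *Col1a1* changed by 4.40 ± 1.53 (SE) in all mesenchymal cells without passing (adjusted p = 0.145 by edgeR). DESeq2 1.42.0 and other cell filters, scalings, resolutions, thinning depths, pseudocounts and free RNA subtraction were alternatives. Genes named from the lists are those past the threshold in either fit, at most 4 per direction, and the 3 genes closest to each of the 10. All p-values rest on the spread between these libraries with 1 residual degree of freedom. That spread is largely borrowed from the other genes, so very small p-values do not measure a gene's own spread.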

Additional observations from a re-analysis of the deposited data

Results flagged for a closer look

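*Thbs1* was the single gene of the 10 whose ABL to CONT ratio went one way in reticular-like cells and the opposite way, in both replicates, in periosteal or fibroblast-like cells and in hematopoietic cells. On the log2(CPM + 10) scale the difference in reticular-like cells was 0.0195 in replicate 1 and 0.0271 in replicate 2. It was -1.09 and -2.18 in periosteal or fibroblast-like cells and -0.23 and -0.87 in hematopoietic cells. The difference between the classes was not tested, and the reticular-like values lie close to 0 and were below 0 in cells with a Y-linked UMI and no *Xist* UMI. With 2 libraries per condition, no test for a library far from the others of its group was possible.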

How the results depend on the processing

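The count of calls in reticular-like cells stayed within 1.5 times of 493 under 11 alternatives and was 147 with DESeq2 in place of edgeR. With no replicate block it was 0 in reticular-like cells and 0 in all mesenchymal cells, and the counts over the lists were 0 and 0. Leaving out 1 library in turn, with no replicate block and the lone library assumed to vary like the others, gave 0 to 26 calls in reticular-like and 0 to 271 in all mesenchymal cells, and 0 to 4 and 0 to 8 over the lists. The 413 calls in all mesenchymal cells were less stable: 11 with the strict cell filter, 130 with doublets removed, 646 in cells with a *tdTomato* UMI, 7 after subtraction of free RNA, 181 with all variable genes in the clustering, 3 with DESeq2 size factors and 785 with no filter on low counts. Over the 6 lists, 14 genes were called in reticular-like cells and 7 with DESeq2. In all mesenchymal cells 8 were called, against 5 with the study's filter alone, 0 with the strict filter, 2 with doublets removed, 0 after subtraction of free RNA, 3 with all variable genes in the clustering, 17 with DESeq2, 5 with library sizes alone, 0 with DESeq2 size factors and 14 with no filter on low counts. The cause was not tested.

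The median log2 difference of the 10 genes in reticular-like cells was 0.84 with a pseudocount of 10 CPM, 1.55 with 1 CPM, 0.62 with 50 CPM, 0.71 after subtraction of free RNA and 0.76 in cells with a Y-linked UMI and no *Xist* UMI, and leaving out a replicate gave 0.85 to 0.95. Of 260 single-gene values under alternatives, 234 moved by less than the spread between the replicates, 22 by more, and 4 changed sign: *Cthrc1* and *C1qtnf3* in reticular-like cells after subtraction of free RNA (-0.0268 and -0.0254) and *Thbs1* there with the strict filter (-0.0281) and in cells with a Y-linked UMI and no *Xist* UMI (-0.62). The 260 include the values with a replicate left out, which by construction always lie within the spread of 2 replicates. They also include other resolutions of the mesenchymal clustering, which regroup mesenchymal cells and can hardly change the sum over all of them. The 234 was thus in part fixed in advance and is not a measure of stability. Depth limits *Tnn*, *Cthrc1* and *C1qtnf3* in reticular-like cells.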
